A study of Rangifer tarandus with 8 samples.

Results

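The genes described here encode 10 small leucine-rich proteoglycans, a family of secreted matrix proteins: decorin (DCN), lumican (LUM), keratocan (KERA), epiphycan (EPYC), osteoglycin (OGN), osteomodulin (OMD), asporin (ASPN), biglycan (BGN), fibromodulin (FMOD) and prolargin (PRELP). They were taken by symbol from the protein coding genes of the cattle annotation that served as reference for a single-cell ATAC-seq study of adult reindeer (Rangifer tarandus) skin. Each of the 10 symbols matched 1 gene record, among 21861 protein coding genes in all. The values below are positions and structures in that annotation. Accessibility was not analysed here, so no value describes a cell, a library or a tissue, and nothing was compared between groups.

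The series comprised 8 libraries in 7 groups, of which 6 held 1 library. Velvet, the skin over the growing antler, and back skin were each taken at day 0, before injury, and at day 7 after a full-thickness excision. Velvet grafted ectopically onto the back was taken at 6 weeks from animals 1 and 2, at 3 months from animal 2, and at 6 months. Dead cells were excluded in every group, and the labels give no genotype or age in years. The labelled tissues could not be checked against marker genes, since no cell values were used. The series title names fibroblast states in regeneration and fibrosis as its subject. Fibroblasts are a main source of several of these proteoglycans in dermis, which was not tested here.

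Small leucine-rich proteoglycans consist of a protein core of leucine-rich repeats, to which chains of chondroitin, dermatan or keratan sulfate are attached in many members. Several bind collagen fibrils and set their diameter and spacing, and decorin and biglycan also bind growth factors such as TGF-β. The family is divided by its cysteine pattern and gene structure into classes. Here class I holds DCN, BGN and ASPN, class II holds LUM, KERA, FMOD, PRELP and OMD, and class III holds EPYC and OGN. Because gene structure helped to define these classes, exon numbers that follow them are a description and not a finding.

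The 10 genes lay on 4 chromosomes of ARS-UCD1.2, with 8 on the minus strand and 2, BGN and PRELP, on the plus strand. Of these, 7 formed 2 tandem clusters in which every gene was read in the same direction. No gene of any biotype lay wholly between neighbouring members of either cluster, although the larger gene CENPP spans the whole of the chromosome 8 cluster, and no noncoding gene lay inside a member.

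The EPYC-DCN cluster spanned 210 kb of chromosome 5. In order of increasing coordinate it held EPYC (ENSBTAG00000007990, 20843517 to 20884065), KERA (ENSBTAG00000014340, 20929215 to 20936827), LUM (ENSBTAG00000001745, 20971289 to 20978528) and DCN (ENSBTAG00000003505, 21014376 to 21053400). All of them were on the minus strand, so DCN, whose product binds collagen and TGF-β, stood at the upstream end and EPYC, a cartilage proteoglycan gene, at the downstream end. The gap between gene bodies was 45.1 kb from EPYC to KERA, 34.5 kb from KERA to LUM and 35.8 kb from LUM to DCN. Measured from start to start the order changed, and LUM and DCN were furthest apart, at 74.9 kb against 52.8 kb for EPYC and KERA and 41.7 kb for KERA and LUM. Each gap between bodies was longer than the median of 18.3 kb over 19694 gaps between coding genes of the whole annotation. Gene bodies filled 45.0% of the cluster.

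The OGN-ASPN cluster on chromosome 8 was more compact, at 73.1 kb, so that the EPYC-DCN span was 2.87 times as long. It held OGN (ENSBTAG00000011824, 84019514 to 84035380), OMD (ENSBTAG00000011836, 84044974 to 84052939) and ASPN (ENSBTAG00000011847, 84067290 to 84092633), again all on the minus strand. Osteoglycin and osteomodulin were named after bone matrix, and asporin after its run of aspartate residues. The gaps were 9.59 kb between OGN and OMD and 14.4 kb between OMD and ASPN, and gene bodies filled 67.3% of the span. From start to start, OGN and OMD were 17.6 kb apart and OMD and ASPN 39.7 kb. Both gaps lie inside a larger coding gene, CENPP, so they are not free of coding genes and cannot be set beside the median above.

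Read in the direction of transcription, both clusters followed the same order of classes. On chromosome 5 the class I gene DCN came before the class II genes LUM and KERA and the class III gene EPYC. On chromosome 8 the class I gene ASPN came before the class II gene OMD and the class III gene OGN. The shorter cluster thus held 1 class II gene where the longer held 2. ECM2, which encodes a related leucine-rich matrix protein, lay 15.8 kb upstream of ASPN on the same strand, with no coding gene wholly between them. At the other end, the nearest coding gene that did not overlap OGN was NOL8, 68.3 kb downstream of OGN and outside CENPP.

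**Figure D1:**
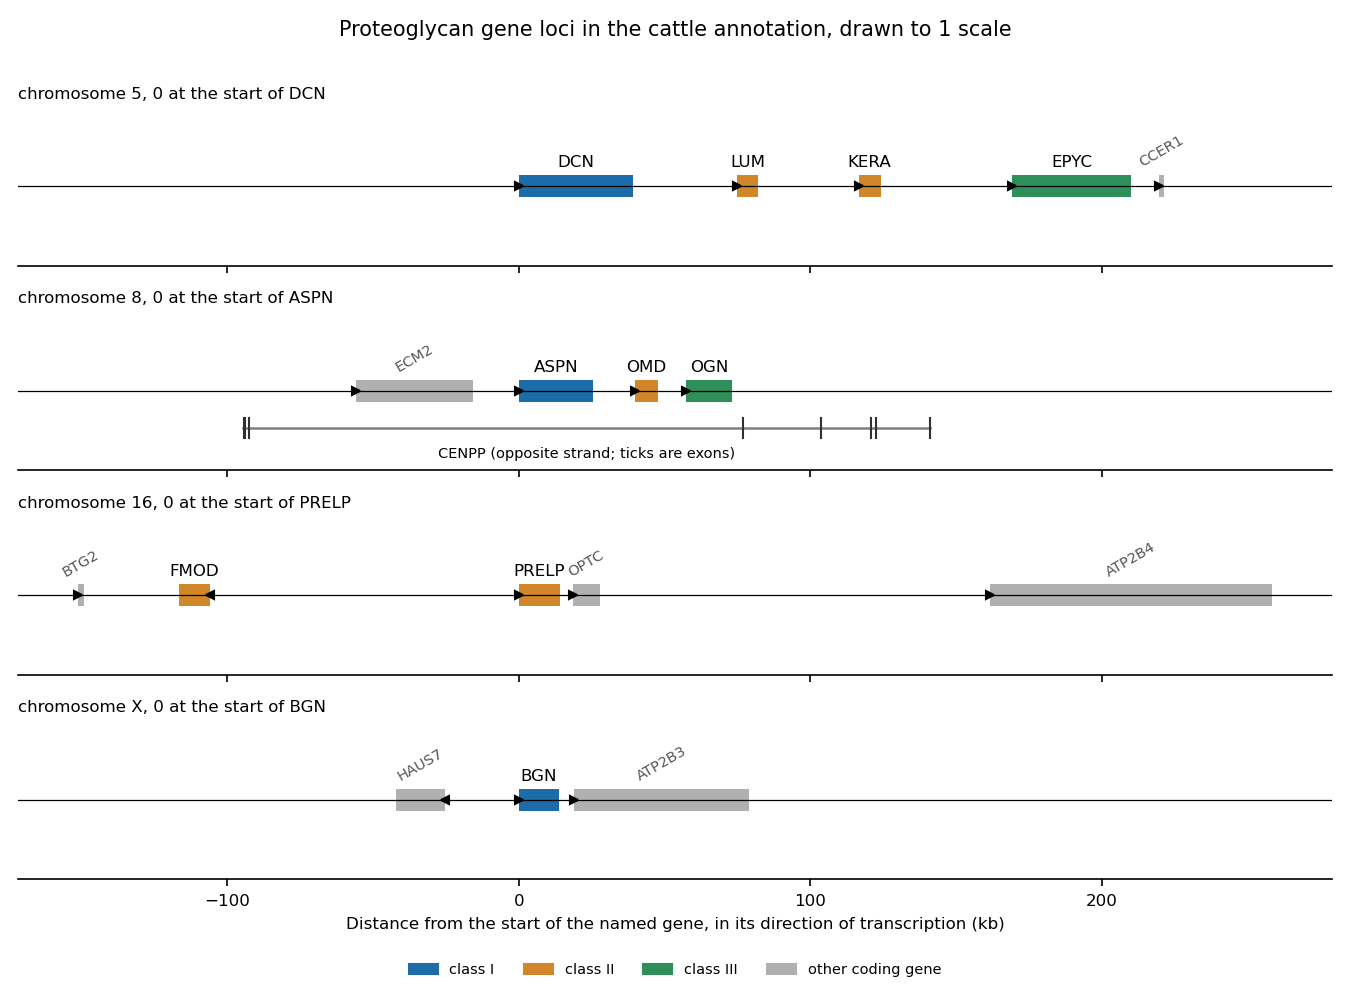
Positions of the members (coloured by class) and of neighbouring coding genes (grey) at 4 loci, in kb from the start of DCN, ASPN, PRELP or BGN in its direction of transcription. Triangles mark gene starts and point along transcription, and ticks on CENPP are its 8 exons. Not every coding gene within the shared axis is drawn, so empty stretches are not all free of coding genes. Class I, II and III genes follow each other in that order on chromosomes 5 and 8, and ASPN, OMD and OGN lie between neighbouring CENPP exons.

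The other 3 genes were not all solitary. FMOD (ENSBTAG00000014912, 1122157 to 1132658, minus strand) and PRELP (ENSBTAG00000017834, 1238615 to 1252736, plus strand) were neighbouring coding genes on chromosome 16, 106 kb apart and pointing away from each other. Fibromodulin binds collagen fibrils, and prolargin binds collagen and heparan sulfate. This gap was wider than any inside the tandem clusters, and gene bodies filled 18.9% of the 131 kb from FMOD to PRELP. OPTC, the gene of the eye proteoglycan opticin and a further class III gene, followed PRELP after 4.33 kb on the same strand. PRELP and OPTC thus repeated the step from class II to class III along transcription, whereas FMOD pointed the other way.

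BGN (ENSBTAG00000005250, X chromosome, 36728398 to 36742298, plus strand) was the only member with no other member on its chromosome. Its neighbours were HAUS7, a gene of the spindle complex augmin, at 25.2 kb and ATP2B3 at 4.88 kb. Of 8 related genes looked up beside the members (ECM2, OPTC, NYX, CHAD, CHADL, TSKU, PODN and PODNL1), ECM2 and OPTC were the 2 that adjoined a member. NYX, the nyctalopin gene of the retina, was also X-linked but lay 65.4 Mb from BGN, and CHADL was 91.3 Mb from DCN on chromosome 5. The chondroadherin gene CHAD, TSKU, PODN and PODNL1 were on chromosomes without a member.

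Plasma membrane calcium pump genes of the ATP2B family lay beyond 3 of the 4 loci. They and the BTG genes below were looked up because they are known to lie near these proteoglycan genes in other mammals. Their presence here is therefore a description and not a finding. ATP2B3 (36747183 to 36807481) directly followed BGN. ATP2B4 (chromosome 16, 1400155 to 1497069) lay 147 kb past PRELP with only OPTC between, and ATP2B1 (chromosome 5, 19476824 to 19607517) lay 1.24 Mb past EPYC with only CCER1 between. In all 3 cases the pump gene was downstream of the member and on the same strand. Chromosome 8 held none of the 4 pump genes, and ATP2B2 was on chromosome 22, which holds no member.

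The antiproliferative genes BTG1 and BTG2 stood at the opposite ends of 2 of these loci. BTG1 (chromosome 5, 22012139 to 22016602) was the next coding gene upstream of DCN, at 959 kb and on the same strand. BTG2 (chromosome 16, 1087323 to 1089347) was 32.8 kb downstream of FMOD, on the opposite strand. It was 149 kb upstream of PRELP, on the strand of PRELP, with FMOD between. The distances differed widely between the loci: 308 of 19694 gaps between coding genes (1.56%) were at least as long as the one from DCN to BTG1, and 199 (1.01%) were at least as long as the 1.22 Mb from CCER1 to ATP2B1. The EPYC-DCN cluster, together with CCER1, was thus flanked on either side by long stretches without an annotated coding gene.

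CENPP, which encodes a centromere protein, was the only larger coding gene that overlapped a member. It ran over 236 kb of chromosome 8 (ENSBTAG00000011814, 83951574 to 84187164) on the plus strand, opposite to OGN, OMD and ASPN, and held all 3 genes whole. All lay in its intron 5, from 84015825 to 84185179, which at 169 kb made up 71.9% of the CENPP body. The 3' end of OGN lay 3.69 kb from exon 5 of CENPP, and the 5' end of ASPN lay 92.5 kb from exon 6. ECM2 lay in the same intron, and the 4 nested genes filled 52.6% of it. No exon of either annotated CENPP transcript fell within OGN, OMD, ASPN or ECM2.

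The count of members that overlapped another coding gene was therefore 3 of 10, and 16.7% of all coding genes did so. Being wholly inside a larger coding gene applied to the same 3 members and to 5.04% of all coding genes, and lying inside 1 intron of a gene on the opposite strand to 2.72%. These 3 members share 1 host and are not separate instances. DCN, LUM, KERA, EPYC, FMOD, PRELP and BGN overlapped no coding gene, and among the related genes CHAD overlapped the acyl-CoA synthetase gene ACSF2.

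Nesting carries over to the interval over which the Signac package by default adds up ATAC fragments to score a gene, which is the gene body plus 2 kb upstream. Under this rule the windows of OGN (17.9 kb), OMD (9.97 kb) and ASPN (27.3 kb) lay wholly within that of CENPP, so a fragment in any of them would be counted for CENPP as well. They took up 23.2% of the CENPP window of 238 kb, and 40.8% with ECM2 added. In contrast, none of the other 7 windows was shared, from LUM at 9.24 kb and KERA at 9.61 kb to DCN at 41.0 kb and EPYC at 42.5 kb. A shared window was thus found for 3 of 10 members and for 30.1% of all coding genes. With 5 kb upstream, PRELP would also share 3.49% of its window with OPTC, and BGN 0.614% with ATP2B3.

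Each member had 1 annotated transcript and 1 start site. Over all coding genes, 62.3% had 1 transcript and 71.1% had 1 start site. In all 10 members exon 1 was noncoding and the start codon lay in exon 2, an arrangement found in 15% of coding genes. That share is over all coding genes, including 2738 with 1 exon, which cannot have this arrangement. Models without an annotated 5' UTR cannot have it either. The start codon followed the beginning of exon 2 after 8 bases in KERA, 9 in FMOD, 11 in BGN, 12 in EPYC, 14 in OMD, 16 in PRELP, 20 in LUM, 23 in ASPN and 33 in DCN. OGN stood apart, with 353 bases of 5' UTR in exon 2 and the longest 5' UTR, of 944 bases. Intron 1, which separated the start site from the coding sequence, was 0.739 kb long in OGN and up to 8.36 kb in BGN. In 3 of the 8 related genes (ECM2, OPTC and TSKU) the start codon likewise lay in exon 2 after a noncoding exon.

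The class I genes DCN, BGN and ASPN had 8 exons each, as did 4.57% of coding genes. Of their 7 coding exons, 4 had the same length in all 3 genes: exon 3 with 113 bases, exon 4 with 214, exon 6 with 94 and exon 7 with 139. These 4 exons made up 51.9% of the coding sequence in DCN, 50.5% in ASPN and 50.6% in BGN. The remaining coding exons differed in length, exon 2 the most. Exon 5 had 114 coding bases in DCN and 111 in the others, exon 8 had 192 in DCN and 195 in the others, and exon 2 ranged from 214 in DCN and 241 in BGN to 244 in ASPN. Every intron within the coding sequence interrupted the frame at the same codon position in the 3 genes. The coding sequences predicted 360 residues for DCN, 369 for BGN and 370 for ASPN, signal peptides included.

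The class II genes LUM, KERA, FMOD, PRELP and OMD had 3 exons each, as did 8.48% of coding genes. Most of the protein was encoded by exon 2, which held 874 coding bases in LUM, 886 in KERA, 940 in OMD, 970 in PRELP and 979 in FMOD. The only intron within the coding sequence came after the first base of a codon (phase 1) in all 5. Exon 3 added 149 coding bases in FMOD, 152 in LUM, 170 in KERA and 173 in PRELP, but 326 in OMD. OMD accordingly had the longest predicted protein of the 10, with 422 residues against 342 to 381 in the other class II genes, and 74.2% of its coding sequence in exon 2 against 83.9 to 86.8%. Osteomodulin is known for an acidic C-terminal extension.

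The class III genes EPYC and OGN had 7 exons each, as did 5.23% of coding genes. Their last 4 exons had identical coding lengths of 159, 203, 96 and 168 bases, which made up 65.0% of the EPYC and 69.8% of the OGN coding sequence. The difference lay near the N-terminus, where exon 3 had 172 bases in EPYC and 97 in OGN and exon 2 had 165 and 174 coding bases. The predicted proteins had 321 and 299 residues, and OGN was the shortest of the 10.

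**Figure D2:**
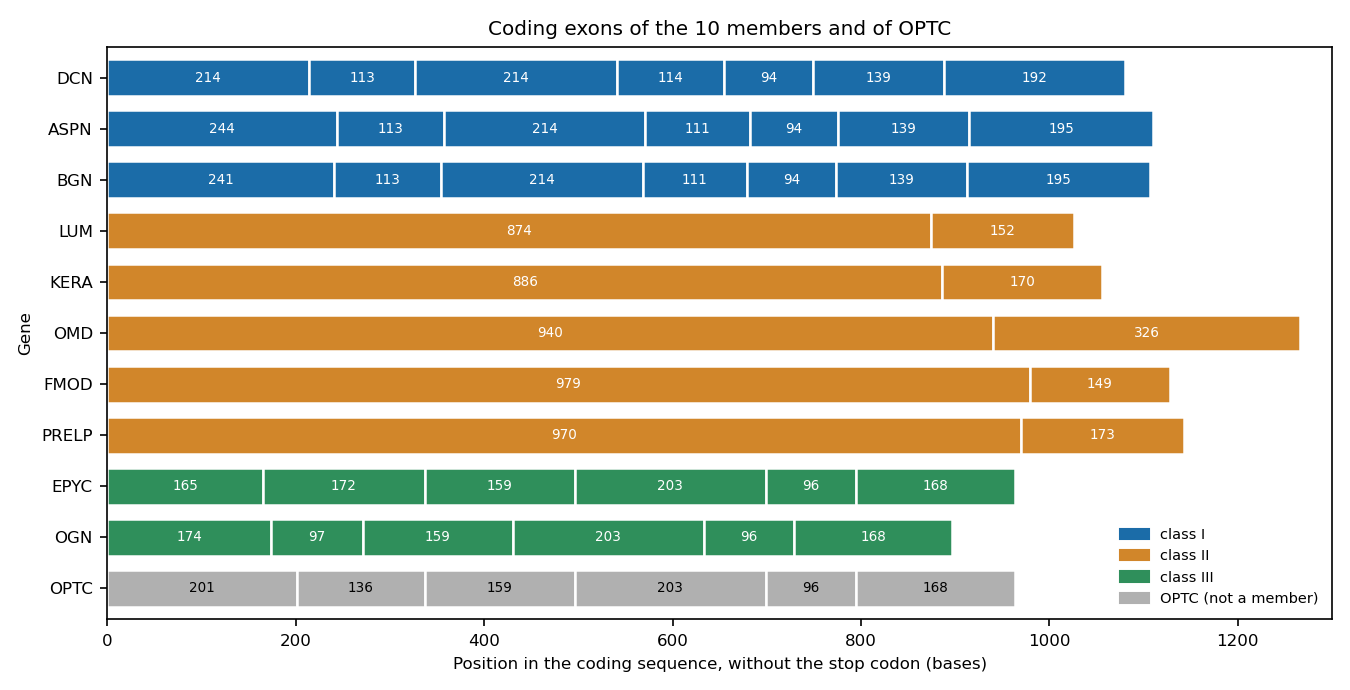
Coding exons of the 10 members and of OPTC drawn to scale in bases from the start codon, with the length of each exon printed inside it and colours for the class. Exons of 113, 214, 94 and 139 bases recur in DCN, ASPN and BGN, and the run of 159, 203, 96 and 168 bases recurs in EPYC, OGN and OPTC.

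These runs of exon lengths were looked up in every transcript of all coding genes, a search chosen after the lengths had been seen. The run 159, 203, 96 and 168 occurred in 3 coding genes: EPYC and OGN, from which it was taken, and OPTC. OPTC also had 7 exons with the start codon in exon 2. The runs looked up for class I were pairs, which can recur more easily than a run of 4, so their counts cannot be set beside the one above. The pair 113 and 214 occurred in 7 coding genes and the pair 94 and 139 in 5. The 3 genes named by both lookups were DCN, BGN and ASPN, from which the pairs were taken. The class II layout was defined as 3 exons, a start codon in exon 2, 1 phase 1 intron in the coding sequence and a coding part of exon 2 within the range of the 5 members. It was met by 6 coding genes. The 5 members had to meet it, since its limits were taken from them, and the other gene was the potassium channel gene KCNJ5. ECM2, with 10 exons, had none of these layouts.

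In classes I and III, gene length varied far more than coding length, and the difference lay in the introns. Within class I, the coding length differed 1.03-fold and the gene body 2.81-fold, from 13.9 kb in BGN to 25.3 kb in ASPN and 39.0 kb in DCN. BGN had the longest intron 1 of the 3, at 8.36 kb against 6.77 kb in ASPN and 3.79 kb in DCN, but the shortest of each later intron. Intron 2 was 11.9 kb in DCN, 2.54 kb in ASPN and 0.270 kb in BGN, and intron 6 was 3.85, 0.382 and 0.102 kb in the same order. Intron 5 was almost equal in DCN (5.68 kb) and ASPN (5.73 kb) and 0.255 kb in BGN.

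Within class III, EPYC at 40.5 kb was the longest member and 2.56 times as long as OGN at 15.9 kb. Intron 2 accounted for most of this, with 26.0 kb in EPYC and 1.41 kb in OGN. Intron 3 was alike in both, at 6.74 and 6.68 kb, and introns 4 and 5 were longer in OGN. Introns made up 97.4% of EPYC, the highest share of the 10. Exonic length, UTRs included, ran the other way, with 1068 bases in EPYC and 2434 in OGN.

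**Figure D3:**
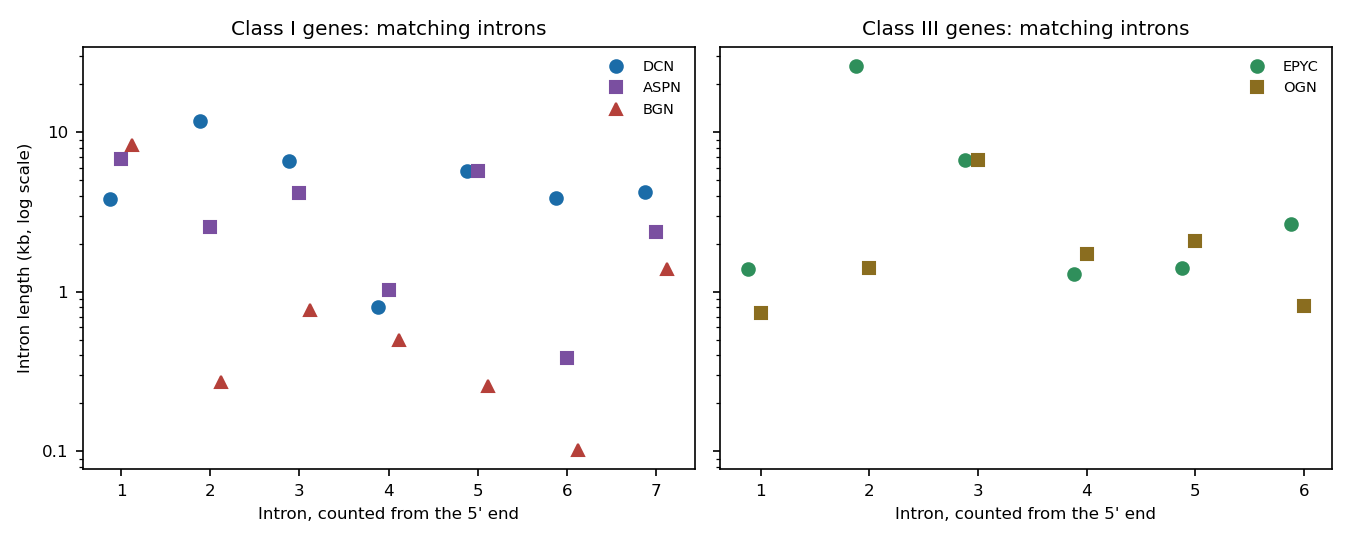
Length in kb (log scale) of each intron, counted from the 5' end, in the class I genes DCN, ASPN and BGN (left) and the class III genes EPYC and OGN (right), with 1 point per intron. BGN is highest at intron 1 and lowest at introns 2 to 7, and EPYC and OGN lie furthest apart at intron 2.

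The class II genes were short, from LUM at 7.24 kb, KERA at 7.61 kb and OMD at 7.97 kb to FMOD at 10.5 kb and PRELP at 14.1 kb. Exonic length differed as well, UTRs included. It was 1727 bases in OMD, 1835 in LUM, 2113 in KERA, 3150 in FMOD and 3812 in PRELP. Introns took up 70.0% of FMOD to 78.3% of OMD, below the lowest value in the other classes, 83.7% in BGN. Intron 1 was longer than intron 2 in OMD (5.23 and 1.01 kb) and PRELP (7.37 and 2.94 kb), and shorter in LUM, KERA and FMOD. PRELP had the longest 3' UTR of the 10, with 2405 bases, followed by FMOD with 1468 and ASPN with 1031. EPYC had 45 bases, and the OMD model ended at the stop codon with no 3' UTR, as did 40.8% of coding genes.

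Set against all coding genes, the members were of ordinary size. Their median gene body was 14.01 kb and that of all coding genes 14.04 kb, and the medians of predicted protein length were 365 and 382 residues. Members had a median of 5 exons and all coding genes 6, although no member had exactly 5 or 6. The members' medians were higher for the 5' UTR (243 against 55 bases) and the 3' UTR (796 against 156 bases). A 3' UTR was missing from 40.8% of all coding models and from 1 member, and the part of such incomplete models in this contrast was not tested.

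**Figure D4:**
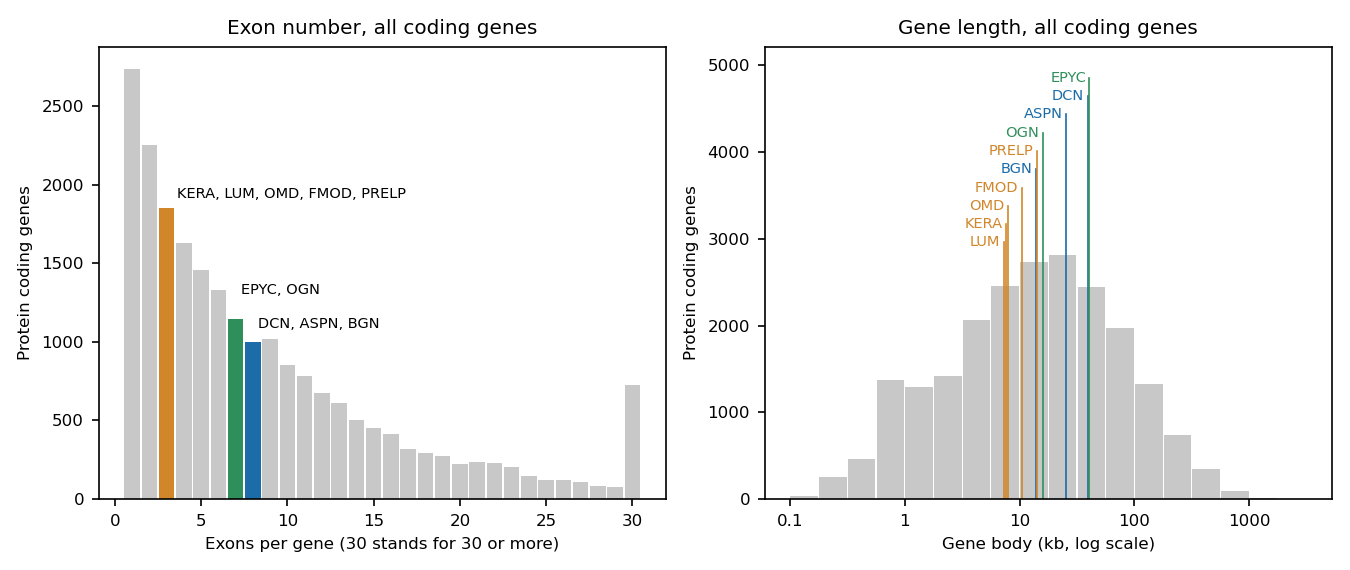
Number of protein coding genes by exon number (left; bars that hold members are coloured by class and labelled) and by gene body length in kb on a log scale (right; lines mark the members). The members fall at 3, 7 and 8 exons and between 7.24 and 40.5 kb, within the bulk of the 21861 genes.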

How the data were processed

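The file used was the gene annotation of the cattle assembly ARS-UCD1.2, per the file headers, with Ensembl identifiers. Its deposited values are 1-based feature coordinates, with no unit of signal and no sample. Per the series text, reindeer reads were aligned to a cattle reference and analysed with Signac 1.2.1. The submitters' processing notes name Cell Ranger ATAC and Cell Ranger, without versions. All coordinates are therefore cattle coordinates, and gene order in reindeer was not analysed here. Depth per cell is unknown.

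A gene's symbol was read from the earlier of the 2 name fields in its record. The members and lists were chosen with earlier results of these data known. The genes named are all members, coding genes that overlap, separate or adjoin them, and lists of related proteoglycan genes and of flanking ATP2B and BTG genes. KCNJ5 and ACSF2 were named after their values were seen. Exons, introns and UTRs come from the transcript with the longest coding sequence. Start sites are distinct transcript 5' ends. Overlaps count from 1 base on either strand. Python 3.11.15 was used, and the overlap and exon-run code was tested on simulated data. No test was made, since 1 annotation has no replicates. Sequences were not analysed here.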

Additional observations from a re-analysis of the deposited data

How the results depend on the processing

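The spans of both tandem clusters and of the FMOD-PRELP pair stayed within 1.5 times their value when 2 kb windows replaced gene bodies. This check could not come out otherwise, since 2 kb is short beside each span and points inward for FMOD and PRELP. The count of 3 members that overlap another coding gene was the same with an overlap of at least 10% of the body and with neighbours of any biotype. It was 0 with same-strand neighbours only, since CENPP is on the opposite strand. The count of 3 shared windows was the same with 0 kb upstream and was 5 with 5 kb, by PRELP and BGN, as a longer window reaches further. The share over all coding genes was 16.7% and 40.4% under these settings. Exon numbers and start sites of all 10 members were the same when exons were merged over transcripts, when starts within 500 bases were merged and with coding transcripts only, as each has 1 transcript. Measured from start to start, neighbours in the EPYC-DCN cluster were 41.7 to 74.9 kb apart, with LUM and DCN in place of EPYC and KERA as the widest pair, and those in the OGN-ASPN cluster were 17.6 and 39.7 kb apart. Searches for promoter motifs and comparisons of protein identity were not run, as sequences were not analysed here. No paired analysis was possible because no result comes from a comparison of samples.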
